A study of Mus musculus with 12 samples.

Results

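Ppp2r3a and Arpp19 are 2 regulators of protein phosphatase 2A (PP2A), a serine/threonine phosphatase that works as a catalytic subunit on a scaffold subunit, with a further, exchangeable subunit that sets its targets. Ppp2r3a encodes regulatory subunits of the B'' family. A long form, PR130, and a short form, PR72, start at different first exons and share the rest of the protein, which binds calcium through EF hands. Arpp19 encodes a small phosphoprotein. Once the kinase Greatwall (Mastl) phosphorylates it, Arpp19 binds and inhibits PP2A holding a B55 subunit, which lets cells enter and stay in mitosis. The members were all rows of the 6 deposited tables with either gene name or with the same gene model. They came to 17 exon bins of Ppp2r3a and 7 of Arpp19, 24 of the 925 exon bins and 2 of the 58 gene models in the series. An exon bin is a stretch of exon that no other bin overlaps.

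The study was built to test how well changed isoforms are detected. All RNA was from the mouse line D1, known as a dendritic cell line, and the 12 samples are computed mixtures of sequenced reads. Each starts from an unstranded, poly(A)-selected TruSeq library of 1000 ng or 100 ng of total RNA, called its background. Added to this were reads of certain transcripts, found among 20M, 40M or 80M source reads (M, 1e6). The source was a NuGENv2 library, with 2 ng of RNA as input, or a TruSeq library, with 100 ng as input. Synthetic reads of uniform coverage were added too. No group differs in genotype or treatment. Every contrast below is therefore between read mixtures, and the labels list which transcripts were added. Each sample had 5 replicates, and nothing says that they came from separate cultures, so p-values measure the spread between these columns, which may be technical. As RNA was measured in bulk, levels in the D1 cells themselves do not tell fewer cells with a transcript from less of it per cell.

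Per the labels, the kit-read list of the 1000 ng background holds 1 transcript of the Ppp2r3a model (uc009rfi.1) and that of the 100 ng background holds another (uc009rfh.2). Arpp19 has no transcript on either kit-read list. Its transcript uc012gwx.1 is on the 1000 ng list of synthetic reads with a complex background of isoforms. The direction of a difference in Ppp2r3a or Arpp19 was thus partly set by the design. For Ppp2r3a the data show where along the gene the reads added between source depths fell. For Arpp19 the synthetic reads cannot be told apart from the others. The files do not say which bins belong to which of these transcripts.

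Ppp2r3a (ENSMUSG00000043154) lies on the minus strand of chromosome 9, from 101007322 to 101154162 (NCBIM37, the same assembly as mm9). Its bins run from E001 at the 3′ end to E017 at the 5′ end. Lengths matched 1 annotated exon each for 14 of its 17 bins. E017 (101153992 to 101154162) is the non-coding first exon of the long transcript. E016 (101113461 to 101115892) is its next exon, with coding sequence from 101113461 to 101115452. E015 (101100961 to 101101403) is the first exon of the short transcript, coding from 101100961 to 101101092. E014 (101096489 to 101096755) and E003 to E012 are coding exons in both. E001, E002 and E013 have lengths of 2979, 775 and 1584 bases that no annotated exon has, so their exact positions are not given here. Both sequences below cross from a coding exon of 1 form into E014, with the last 90 coding bases of E016 (chr9:101113461-101113550) or of E015 (chr9:101100961-101101050) in lower case. The first 30 bases of E014 (chr9:101096726-101096755) are in capitals. They are shown because the isoform-specific ends differ and the capitals, where the shared part begins, are the same.
PR130, E016 into E014: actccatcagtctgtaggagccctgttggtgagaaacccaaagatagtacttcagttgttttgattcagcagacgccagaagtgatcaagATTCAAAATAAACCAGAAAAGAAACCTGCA
PR72, E015 into E014: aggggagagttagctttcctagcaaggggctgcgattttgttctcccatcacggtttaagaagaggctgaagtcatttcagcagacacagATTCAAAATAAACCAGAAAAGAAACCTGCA

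Arpp19 (ENSMUSG00000007656) lies on the plus strand of chromosome 9, from 74885421 to 74908120. Lengths matched an annotated exon for 4 of its 7 bins. E001 (74885421 to 74885526) is partly coding, and E003 (74885714 to 74885768) and E006 (74900040 to 74900162) are coding exons. E007 (74904442 to 74908120) starts with coding sequence up to 74904609 and continues as 3′ untranslated sequence. E002, E004 and E005, of 174, 509 and 118 bases, matched no annotated exon. The codons around the serine that Greatwall phosphorylates lie in E007. The stretch of E007 that holds them (chr9:74904442-74904528, plus strand) is shown with those codons in capitals (chr9:74904451-74904468), because it places the regulated site of Arpp19 in the bin with the most reads.
Arpp19, start of E007: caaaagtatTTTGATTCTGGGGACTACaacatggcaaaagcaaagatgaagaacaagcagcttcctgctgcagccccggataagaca

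The genes differ in abundance. Levels are given as FPKM equivalents, which are reads per kilobase and per 1e6 reads on a scale set by the library total of 1 column. In the table with 20M NuGENv2 reads, the Ppp2r3a model total measured 1.48 ± 0.13 (SD, n = 5) in the 1000 ng background, rank 56 of 58 models. Arpp19 measured 15.7 ± 1.19 (SD, n = 5), rank 29. In reads, Ppp2r3a held 366, 762, 319, 437 and 310 over its 17 bins in replicates 1 to 5 of that sample, and Arpp19 held 2081, 3942, 1628, 2025 and 1676. Reads in all bins ranged from 237258 to 593002 per replicate, leaving out the 100 ng sample with 20M TruSeq reads. That sample stood apart with 1101798 to 1281559 reads. It held 864540 reads more than the 100 ng sample with 20M NuGENv2 reads, in each replicate, spread over 917 of the 925 bins. Results from that table are affected by this excess and are kept apart below.

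Reads added to Ppp2r3a went mostly to E001 and E016 in the 100 ng background and mostly to the bins between them in the 1000 ng background. In the 100 ng background, going from 40M to 80M source reads added 187 reads to E001 and 79 to E016 with NuGENv2. With TruSeq the same step added 187 to E001 and 87 to E016. In the 1000 ng background E016 gained 0 reads in both steps, and E001 gained 0 (NuGENv2) or 3 (TruSeq). E002 to E014 took 36 of the 41 reads gained there with NuGENv2 and 33 of the 36 with TruSeq, against 34 of 304 and 28 of 303 in the 100 ng background. The gain was identical in all 5 replicates, since the same source reads were added to each.

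**Figure D1:**
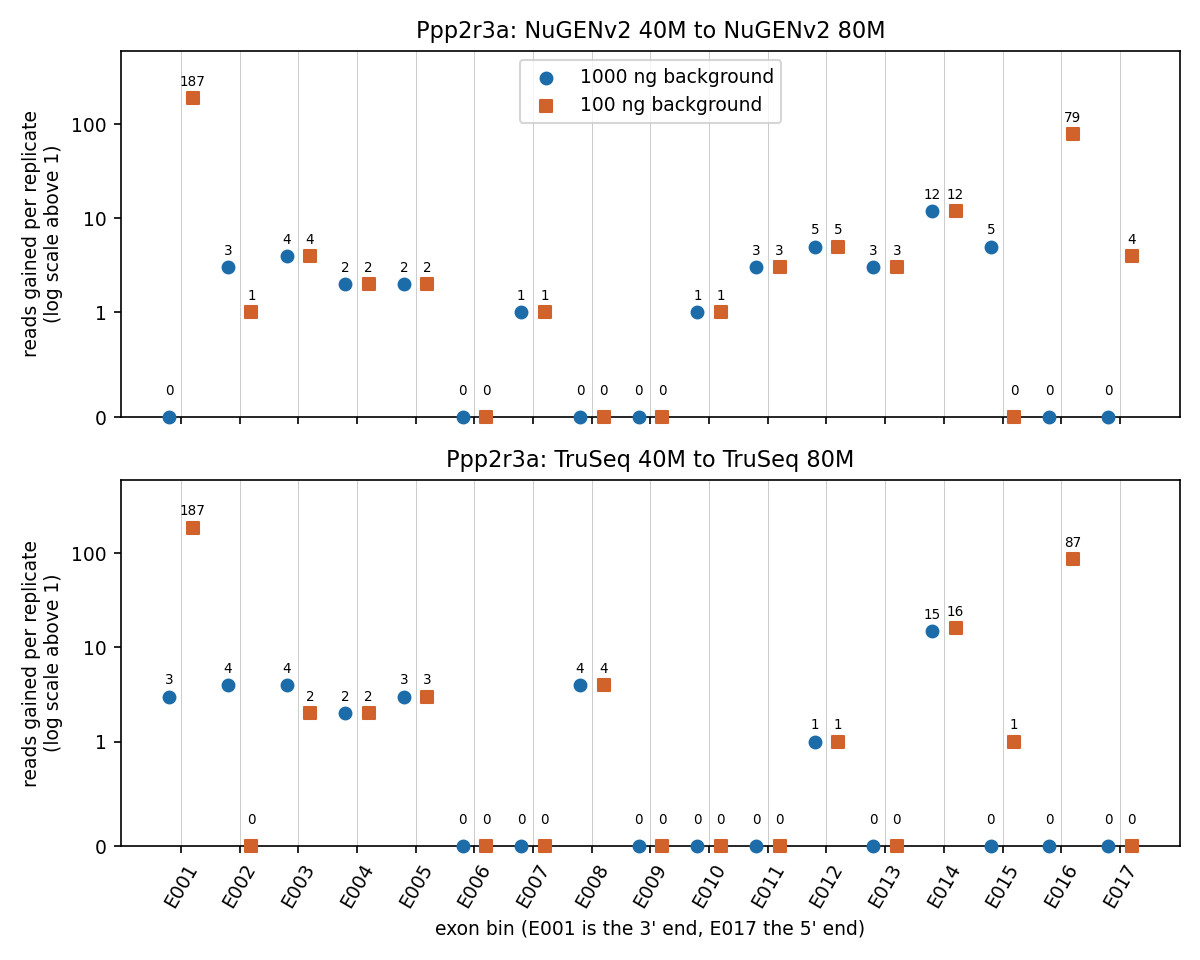
Reads gained by each Ppp2r3a bin (horizontal axis, 3′ end on the left) in every replicate between 40M and 80M source reads, with NuGENv2 above and TruSeq below. The vertical axis is in reads on a log scale above 1, circles are the 1000 ng and squares the 100 ng background. E001 gained 187 reads with each kit in the 100 ng background and 0 or 3 in the 1000 ng background, while most bins between E004 and E013 gained the same number in both.

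Bins E001, E016 and E017 were compared between the kits by their share in the gain. In the 100 ng background E001 took 61.5% of the 304 reads gained with NuGENv2 from 40M to 80M (95% exact Clopper-Pearson interval 55.8 to 67.0) and 61.7% of the 303 gained with TruSeq (56.0 to 67.2). E016 took 26.0% (21.2 to 31.3) and 28.7% (23.7 to 34.2). Within E001 and E016 together, E016 held 29.7% (24.3 to 35.6) with NuGENv2 and 31.8% (26.3 to 37.6) with TruSeq. The intervals overlap, so a difference between the kits in these shares was not detectable at this depth. These intervals cover counting error only, as the reads carry no molecular identifiers. E017, the first exon of the long form, gained 4 of 304 reads with NuGENv2 (1.32%, 0.360 to 3.33) and 0 of 303 with TruSeq, for which the interval reaches 1.21%, and these intervals overlap as well. Among the bins with few added reads the kits gave different numbers in the same step and background, as in E008 (0 with NuGENv2 and 4 with TruSeq), E011 (3 and 0), E012 (5 and 1) and E013 (3 and 0), with no test.

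Bins of the shared part gained few reads, and mostly the same number in both backgrounds. From 20M to 80M NuGENv2 reads, 11 of the 17 bins gained equally in both backgrounds, 8 of them by more than 0. E014 gained 14 reads in both, E012 gained 5 and E011 gained 3. E013, which matched no annotated exon, gained 4 in both. The bins with more reads added to the 100 ng background were E001, E003, E016 and E017. Those with more added to the 1000 ng background were E002 (3 against 1) and E015 (6 against 0). From 40M to 80M TruSeq reads the bins with more in the 1000 ng background were E002 (4 against 0) and E003 (4 against 2), and E015 gained 0 there and 1 in the 100 ng background. From 20M to 80M TruSeq reads E015 gained 1 read in the 1000 ng background, against 6 with NuGENv2.

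Over the whole gene, the step from 40M to 80M added 41 reads with NuGENv2 and 36 with TruSeq to the 1000 ng background, and 304 and 303 to the 100 ng background. The ratios of TruSeq to NuGENv2 were 0.878 (1000 ng) and 0.997 (100 ng). The order of the kits in the 1000 ng background depended on the step, since from 20M to 40M NuGENv2 added 4 reads and TruSeq 21, and from 20M to 80M they added 45 and 57. Those steps were not compared in the 100 ng background, where the TruSeq sample at 20M stood apart. Among the models that gained reads from both kits between 40M and 80M, TruSeq gave the larger gain in 7 of 9 in the 1000 ng background and in 14 of 16 in the 100 ng background. Ppp2r3a had the second lowest ratio in each, against medians of 1.32 and 3.38. This is a description of single mixtures, with no test.

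Relative to E001, fewer of the reads gained in the 100 ng background fell in the shared coding exons than of the reads in either sample with 20M NuGENv2 reads. In the 1000 ng sample with 20M NuGENv2 reads, E003 to E012, the shared coding exons, held 143 reads per kilobase on average, E014 held 117, E001 held 51.2 and E016 held 37.8. Per kilobase, E003 to E012 were thus covered 2.80 times as densely as E001. These bins are 48 to 175 bases long, against 2979 for E001, and no correction was made for reads that cross the edges of short bins. The ratio is therefore read only against the same ratio in other samples. In the 100 ng sample with the same source reads this ratio was 1.31. Both samples include added reads of their own, and a background without additions was not available. Of the reads gained in the 100 ng background from 40M to 80M TruSeq reads, E003 to E012 received 11.4 per kilobase and E001 received 62.8, a ratio of 0.181. In the same step with NuGENv2 the ratio was 0.271. The density of E016 relative to E001 was 0.738 in the 1000 ng sample, 0.582 in the 100 ng sample, 0.518 among the NuGENv2 gains and 0.570 among the TruSeq gains.

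The 100 ng sample with 20M TruSeq reads had gained reads in nearly all bins of the series. Its 2096 extra Ppp2r3a reads came to 676 per kilobase over E003 to E012 against 264 over E001, a ratio of 2.56. By bin the extra reads were from 2.78 times (E013) to 7.46 times (E003) the mean reads of the 100 ng sample with 20M NuGENv2 reads.

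The first comparison asked which bins differ between the backgrounds in each table, with log2 fold changes given as 1000 ng minus 100 ng on log2(FPKM equivalent + 1), so that negative values are higher in the 100 ng background. This scale understates changes of low values. E001 was higher in the 100 ng background in every table, and E016 in both tables at 80M and both at 40M. As all 5 replicates received the same added reads, the SDs and limma p-values of these bins come from the background and the scaling, and variation between additions was not measured.

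E001, the 3′-most bin, had 119, 269, 100, 166 and 108 reads in replicates 1 to 5 at 80M NuGENv2 reads on the 1000 ng background, and 485, 471, 587, 552 and 475 on the 100 ng one. As levels these were 1.54, 2.00, 1.42, 2.10 and 1.69 FPKM equivalents against 9.44, 9.96, 5.81, 6.31 and 9.93. The groups did not overlap. Replicates 3 and 4 of the 100 ng background, which had the largest size factors of that group (1.44 and 1.23 at 20M NuGENv2 reads, against 0.71 or less in the others), had the lowest levels. The means were 1.75 ± 0.29 and 8.29 ± 2.05 (SD, n = 5), and the log2 fold change was -1.73 (SE 0.16, limma adjusted p = 0.000246). With 80M TruSeq reads the level was 1.89 ± 0.31 against 7.78 ± 1.82, log2 fold change -1.58 ± 0.16 (SE, limma adjusted p = 6.13e-05). At 20M NuGENv2 reads E001 was already 2.09 times as high in the 100 ng background, at 3.49 ± 0.57 against 1.67 ± 0.27 (log2 fold change -0.75, SE 0.11, limma adjusted p = 0.0125).

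E016, the large coding exon found only in the long form in the annotation, rose with depth in the same way. It held 81, 156, 80, 88 and 54 reads in the 1000 ng background in every table. In the 100 ng background it held 95, 93, 137, 129 and 90 at 20M NuGENv2 reads, and 228, 226, 270, 262 and 223 at 80M. Levels at 80M were 1.30 ± 0.16 and 4.79 ± 1.22 (SD, n = 5) with no overlap, log2 fold change -1.31 ± 0.15 (SE, limma adjusted p = 0.000791). With 80M TruSeq reads the log2 fold change was -1.20 (SE 0.15, limma adjusted p = 0.000186). At 20M NuGENv2 reads E016 measured 1.24 ± 0.14 against 2.05 ± 0.37, groups that did not overlap either, and missed the threshold (log2 fold change -0.44, limma adjusted p = 0.0595). It passed there with a pseudocount of 0.1 (limma adjusted p = 0.0468) and without replicate 3 of the 100 ng background (0.0467). That was the only 1 of 10 fits leaving out a replicate in which it passed. With replicate number as a block the limma adjusted p was 0.208. Without scaling for depth and the fifth 100 ng column it was 0.876.

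E017, the non-coding first exon of the long form, was sparse. With 80M NuGENv2 reads it held 2, 1, 0, 0 and 1 reads on the 1000 ng background and 6, 8, 6, 6 and 6 on the 100 ng one. It was called there, at log2 fold change -1.27 ± 0.20 (SE, limma adjusted p = 0.00270). With 80M TruSeq reads the 100 ng background held 0, 2, 0, 0 and 0 reads and the log2 fold change was 0.06 (limma adjusted p = 0.881). The bin thus passed in 1 of the 6 tables, on an addition of 6 reads. Beyond the overlapping intervals given above, whether the kits differ in E017 was not tested.

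Bins higher in the 1000 ng background rested on few reads too. E015, the first exon of the short form, held 6, 7, 8, 7 and 7 reads in the 1000 ng background at 80M NuGENv2 reads against 1, 2, 2, 3 and 0, with no overlap in level (0.595 ± 0.17 against 0.156 ± 0.11). Its log2 fold change was 0.46 (SE 0.11, limma adjusted p = 0.0215), and the call was lost when replicate 3 or 4 of the 1000 ng background or replicate 1 of the 100 ng background was left out (0.0598, 0.0511 and 0.0514). E002, next to E001, held 11, 10, 10, 10 and 9 reads at 80M TruSeq reads against 0, 2, 1, 6 and 0, levels of 0.499 ± 0.11 and 0.0937 ± 0.12. Its log2 fold change was 0.46 (SE 0.10, limma adjusted p = 0.00934). E003, a coding exon in both forms, held 20, 35, 23, 28 and 28 reads against 14, 11, 22, 18 and 9, levels of 9.56 ± 2.09 and 6.30 ± 0.89 that overlapped. Its log2 fold change was 0.52 (SE 0.15, limma adjusted p = 0.0351), and 7 of the 10 fits that left out a replicate lost the call.

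**Figure D2:**
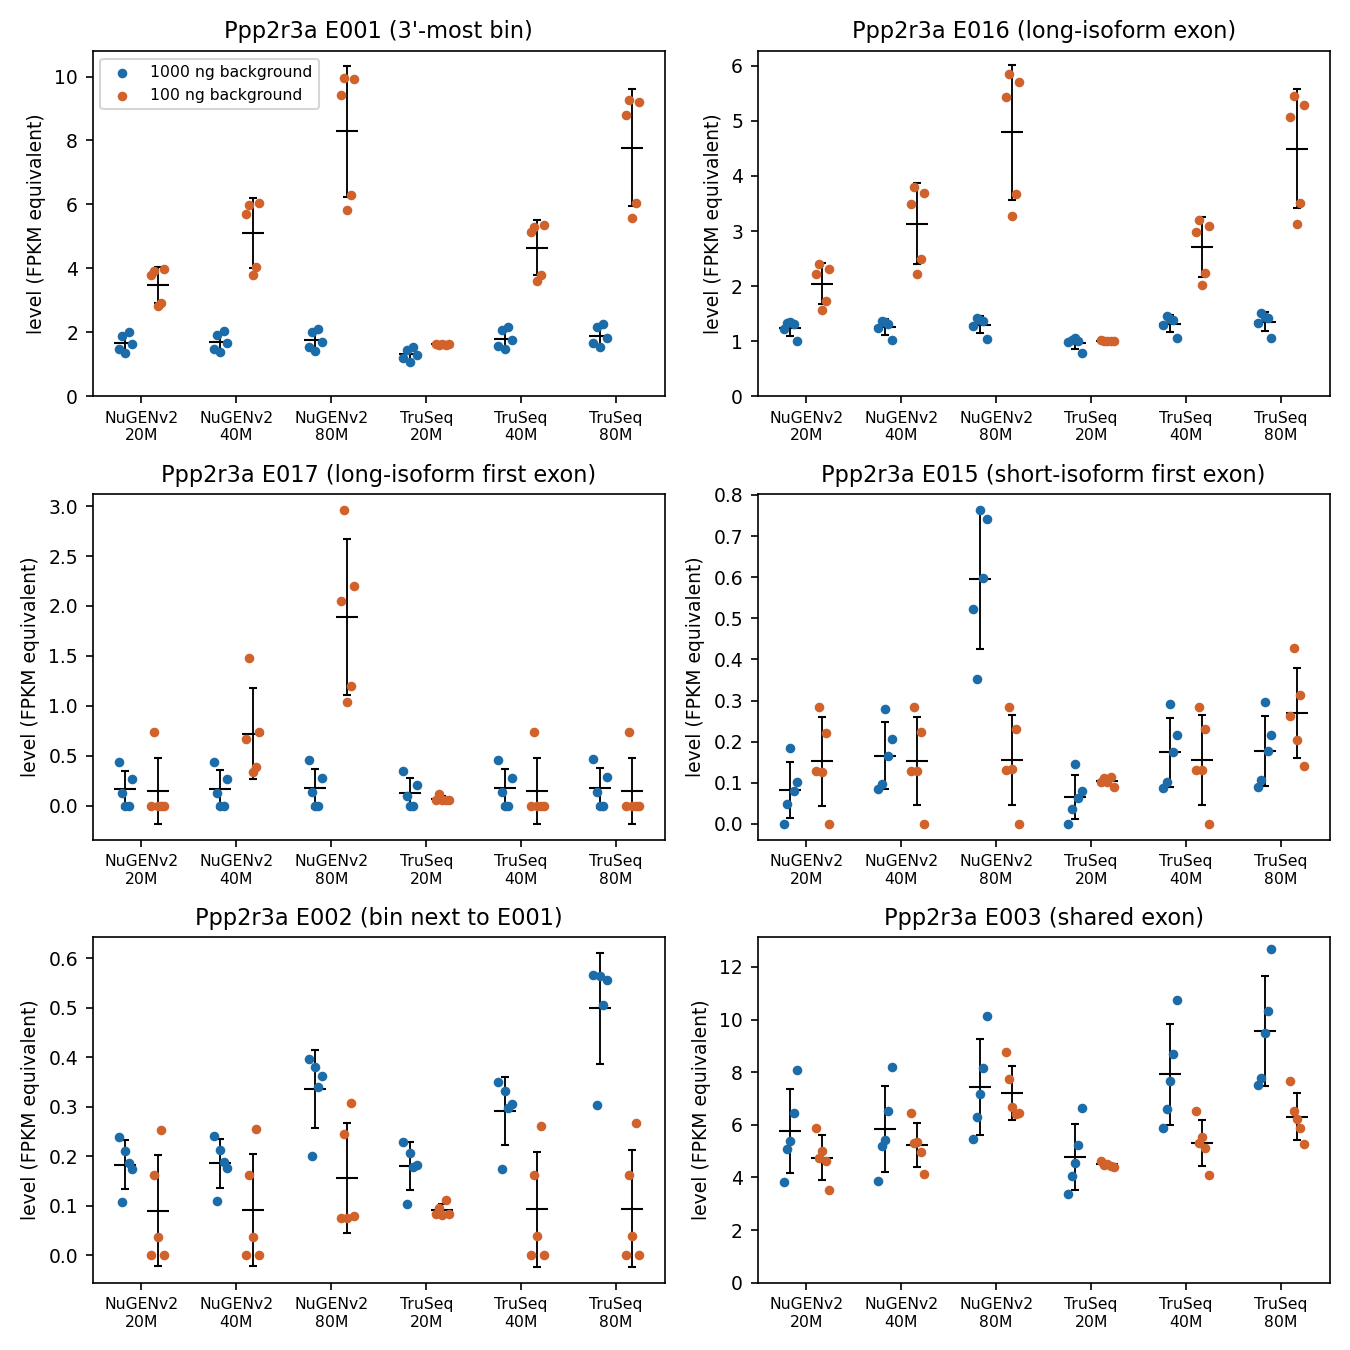
Levels of 6 Ppp2r3a bins in FPKM equivalents (vertical axes, from 0) in the 6 tables (horizontal axes), with a point for each of the 5 replicates and black bars for mean ± SD. E001 and E016 climb with source depth in the 100 ng background (orange), to 8.29 and 4.79 with 80M NuGENv2 reads, and stay at 1.89 or less and 1.35 or less on average in the 1000 ng background (blue). E002 has the higher mean in the 1000 ng background in all 6 tables and E015 in 3, and both stay below 1 throughout.

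Counts of called bins show how far Ppp2r3a stood out. With NuGENv2 reads, limma called 1, 2 and 4 of its 17 bins at 20M, 40M and 80M, where 1.95%, 4.99% and 12.3% of the 922 bins tested were called. With TruSeq reads it called 2 at 40M and 4 at 80M, where 16.9% and 21.4% of all bins were called. As shares these are 5.88%, 11.8%, 23.5%, 11.8% and 23.5%, so that in both TruSeq tables the share was near or below that of all bins. The median log2 fold change over the 17 bins was between 0.06 and 0.12 in these 5 tables, against 0.00 to 0.04 over all bins. Of the shared exons, E010 had the highest values (log2 fold changes of 0.51 to 0.76) without passing the threshold (limma adjusted p from 0.0619 to 0.169). E010 gained at most 1 read between 20M and 80M NuGENv2 reads, in both backgrounds alike, and held 12, 26, 11, 14 and 13 reads against 9, 4, 13, 10 and 3 at 20M.

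**Figure D3:**
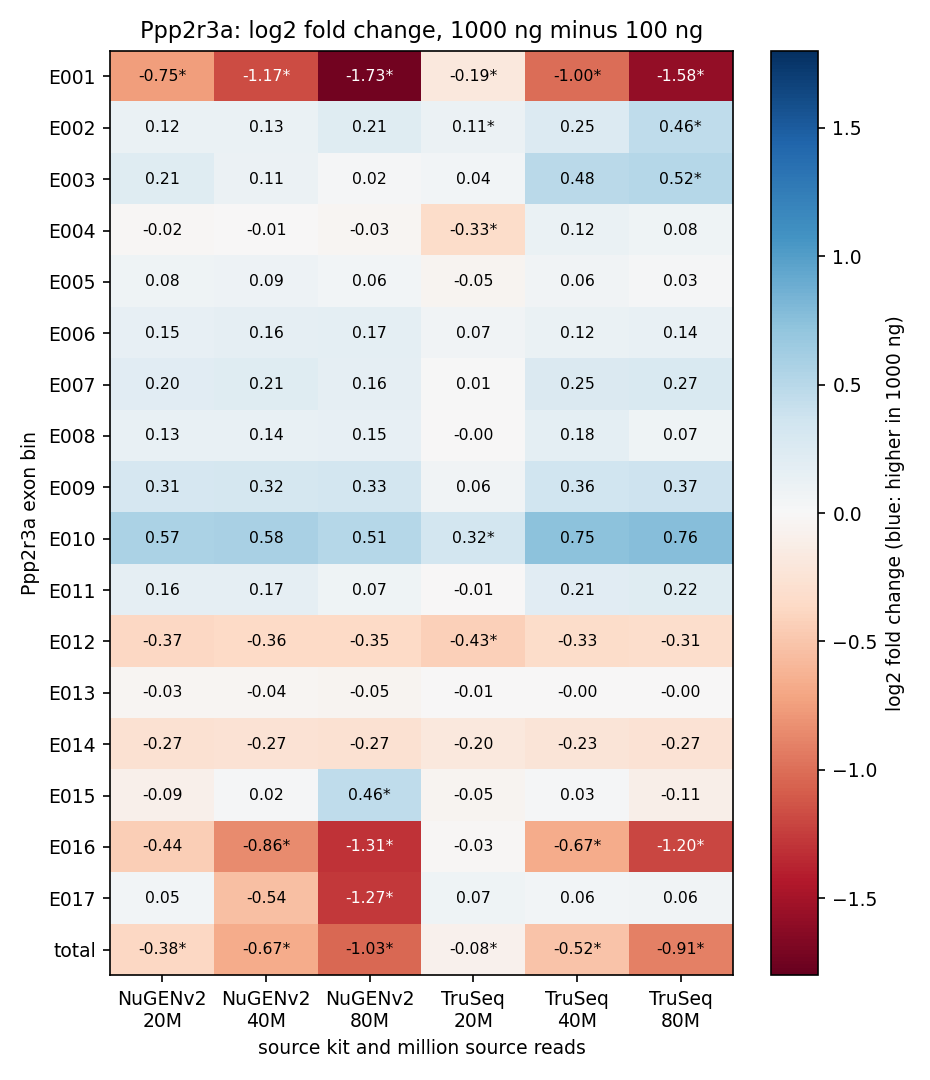
Log2 fold change (1000 ng minus 100 ng) of every Ppp2r3a bin and of the model total (rows) in the 6 tables (columns), in blue where the 1000 ng background was higher and in red where the 100 ng background was higher. Asterisks mark limma adjusted p under 0.05. E001 runs from -0.19 to -1.73 with an asterisk in each table, and no bin between E004 and E014 has one outside the column of 20M TruSeq reads.

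The model total carried the difference of E001 and E016. With 80M NuGENv2 reads Ppp2r3a measured 1.73 ± 0.13 against 4.63 ± 1.01 (1000 ng against 100 ng, SD, n = 5), log2 fold change -1.03 ± 0.12 (SE, limma adjusted p = 0.000166). With 80M TruSeq reads it measured 1.82 ± 0.14 and 4.36 ± 0.88, log2 fold change -0.91 ± 0.11 (SE, limma adjusted p = 8.48e-05). At 20M NuGENv2 reads the log2 fold change was -0.38 (SE 0.07, limma adjusted p = 0.0145), and without replicate 2 of the 100 ng background it was -0.35 (adjusted p = 0.0508). It was called in all 6 tables, in which 5.17%, 17.2% and 24.1% (NuGENv2, 20M to 80M) and 79.3%, 39.7% and 41.4% (TruSeq, 20M to 80M) of the 58 model totals were called. In each of the 6 tables the groups did not overlap. The two-sided exact permutation test gave p = 0.00794 in each, the smallest that 5 against 5 allows, and 0.0136 after adjustment over 12 tests. All 5 columns of a background received the same added reads, so this separation was partly built in. The 6 tables also share reads and are not 6 separate results. How many of the 58 totals had groups without overlap was not counted.

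Usage of bins within Ppp2r3a, the change of a bin relative to the rest of its model, was tested with limma diffSplice. The model was called in all 6 tables, with an adjusted p of 0.00157, 2.39e-08 and 3.60e-20 with NuGENv2 reads and of 0.000940, 3.17e-07 and 2.82e-16 with TruSeq reads, in order of depth. Calls were common, at 27.6%, 31.0% and 39.7% of models with NuGENv2 and 58.6%, 46.6% and 46.6% with TruSeq. The test pools the spread of all bins of a model, although these bins share their columns and are not separate replicates. All 5 replicates also received the same added reads. These p-values can therefore be too small, and the difference in usage was partly built in. With 80M TruSeq reads E001 was lower in usage in the 1000 ng background by a log2 value of -1.65 and E016 by -1.25. E010, E003 and E002 were higher by 0.84, 0.58 and 0.52. With 80M NuGENv2 reads the bins with lower usage there were E001, E016 and E017 (-1.66, -1.21 and -1.17), and those with higher usage were E010, E015 and E009 (0.72, 0.67 and 0.53). The ends E002 and E015 and the ends E001, E016 and E017 thus moved in opposite directions wherever they were called, in the tables other than TruSeq at 20M reads. Usage is relative, so a bin can rise in it while only other bins gain reads. E009 gained 0 reads in both backgrounds from 20M to 80M NuGENv2 reads. Its own log2 fold change was 0.31 and 0.33, while its usage went from 0.33, not called, to 0.53.

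Arpp19 held the same reads in every table, apart from the 100 ng sample with 20M TruSeq reads. All 7 bins had identical reads in the 6 tables of the 1000 ng background and in the other 5 tables of the 100 ng background. Synthetic reads listed for its transcript in the 1000 ng background are part of each table and cannot be separated there from the reads of the cells. The order of levels at 20M NuGENv2 reads in the 1000 ng background was E003 (165 ± 15.1), E006 (143 ± 11.9), E001 (24.4 ± 2.48), E002 (15.1 ± 2.42), E007 (11.1 ± 0.75), E005 (10.3 ± 0.85) and E004 (1.82 ± 0.41), all SD with n = 5. The bins share their columns, and in every replicate of this sample E003 was above E006 and E007 above E005. Across replicates the levels of E003 and E006 overlapped, as did those of E007 and E005. Per kilobase, the coding exons E003 and E006 thus stood far above E007, the bin that holds the Greatwall site and the untranslated sequence. E003 and E006 are 54 and 122 bases long, against 3678 for E007. Reads that cross the edges of short bins raise their density, and no correction was made for this. How far the exons differ in abundance was therefore not measured.

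Arpp19 did not pass the threshold between the backgrounds in these tables. E006 held 489, 935, 377, 480 and 388 reads on the 1000 ng background and 307, 271, 682, 560 and 226 on the 100 ng one. After scaling these were 148, 159, 126, 142 and 143 against 142, 140, 156, 150 and 116 FPKM equivalents at 20M NuGENv2 reads, and the groups overlapped. E007 held 1138, 2130, 907, 1098 and 931 reads against 695, 561, 1460, 1227 and 582, or 11.1 ± 0.75 against 10.4 ± 0.66 as levels (SD, n = 5), which overlapped as well. The model total was 15.7 ± 1.19 against 15.3 ± 1.13, a log2 fold change of 0.03 (95% interval -0.12 to 0.19, limma adjusted p = 0.804). With 80M TruSeq reads it was 17.1 ± 1.64 against 15.8 ± 1.67, a log2 fold change of 0.11 (-0.09 to 0.31, limma adjusted p = 0.450). As the reads were the same, the shift from 0.03 to 0.11 came with the scaling of the columns. In both NuGENv2 tables up to 40M, limma called 0 of the 7 bins and 1 bin had an unadjusted p under 0.05. In the NuGENv2 table at 80M and the TruSeq tables at 40M and 80M both counts were 0. Of all 922 bins tested, 1.95%, 4.99% and 12.3% were called with NuGENv2 reads, in order of depth. With TruSeq reads 16.9% and 21.4% were called at 40M and 80M. At such shares few of 7 bins would be called, so these counts do not set Arpp19 apart. The share of all bins with an unadjusted p under 0.05 was not counted. Bin usage within Arpp19 was not called either, with a limma diffSplice adjusted p between 0.661 and 0.793 in these 5 tables.

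**Figure D4:**
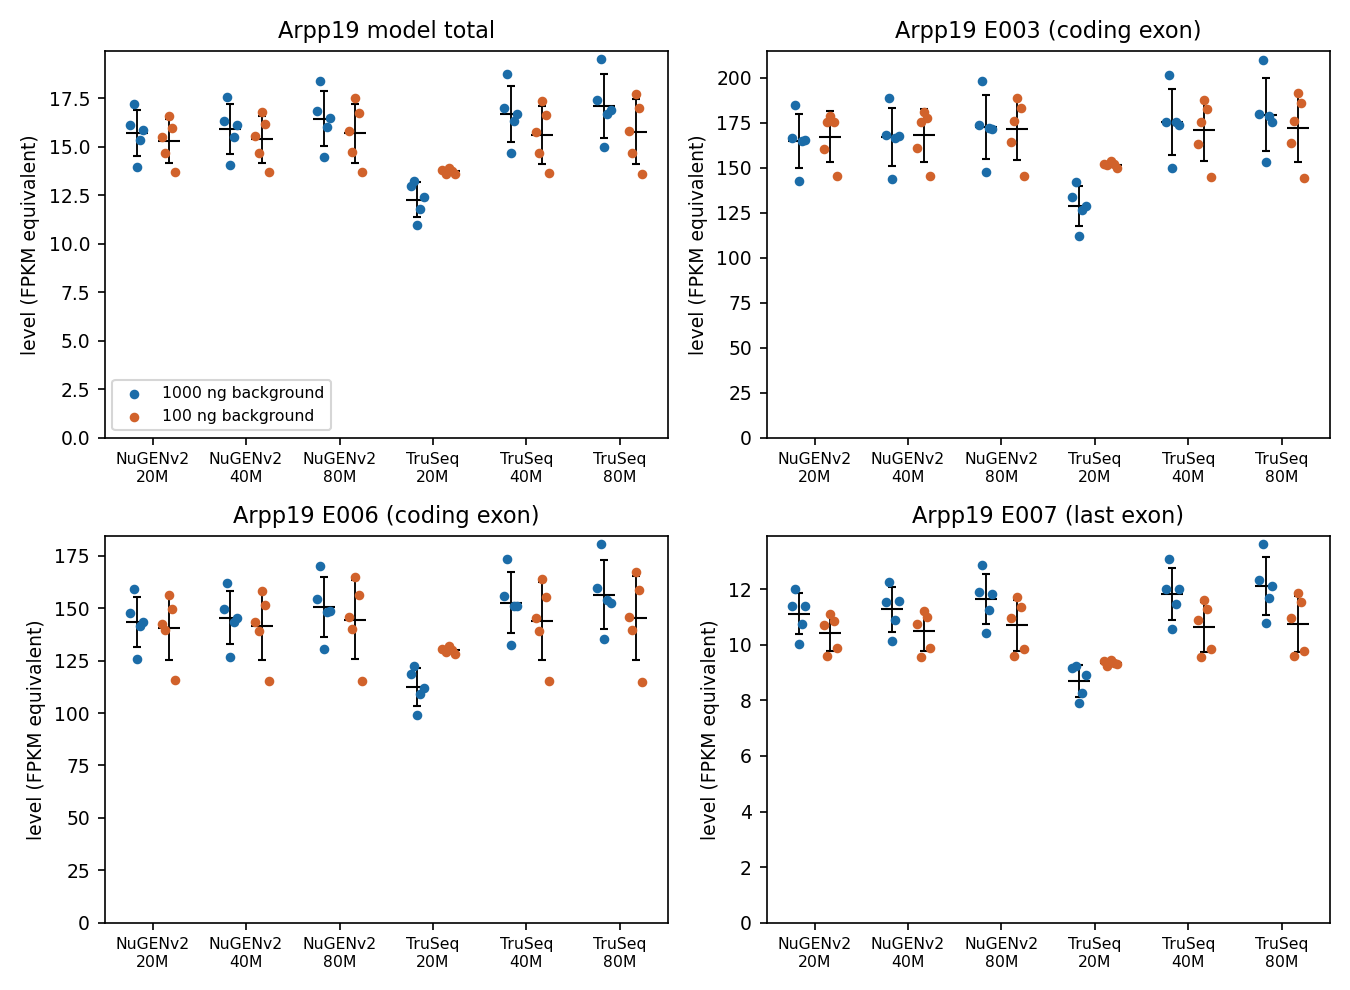
Levels of the Arpp19 model total and of bins E003, E006 and E007 in FPKM equivalents (vertical axes, from 0) in the 6 tables (horizontal axes), with a point per replicate and black bars for mean ± SD, in blue for 1000 ng and orange for 100 ng. The groups overlap in all panels in 5 tables. At 20M TruSeq reads only those of E007 do, and the 100 ng replicates draw together at 13.7 ± 0.15 for the total.

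The TruSeq table at 20M reads gave other results for both genes. In the 100 ng background Arpp19 held 11947 reads more per replicate than in the table with 20M NuGENv2 reads, 6.93 times its mean of 1723 there, and Ppp2r3a held 2096 more, 4.34 times its mean. The Arpp19 bins gained 4.44 to 7.11 times their own reads, least in E004 and most in E006. After scaling, its total was 12.3 ± 0.91 against 13.7 ± 0.15 (1000 ng against 100 ng, SD, n = 5), log2 fold change -0.15 ± 0.05 (SE, limma adjusted p = 0.0120). E001, E002, E003, E005 and E006 were called, 5 of 7 bins and all higher in the 100 ng background, where 62.4% of all bins tested were called. The SD of the 100 ng total was 1.13 in the table with 20M NuGENv2 reads, and here most of the reads were the same in all 5 replicates. In Ppp2r3a 5 of 17 bins were called. E001, E004 and E012 were higher in the 100 ng background and E002 and E010 in the 1000 ng background. E001 had log2 fold change -0.19 ± 0.06 (SE, limma adjusted p = 0.0191), E016 had -0.03 (adjusted p = 0.614) and the Ppp2r3a total had -0.08 ± 0.03 (SE, adjusted p = 0.0329). With size factors from bins that received no kit reads, the median of all bins moved by -0.24 in this table, and the totals were -0.27 for Ppp2r3a and -0.49 for Arpp19. Leaving out a replicate took the call of the Ppp2r3a total away in 8 of 10 cases.

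Few other genes of the pathway could be set beside them. Of a list of 46 gene symbols of PP2A subunits, their modifiers and mitotic entry, 1 had rows, kif18a, a mitotic kinesin. Its total differed by log2 fold changes of 0.14 to 0.23 in the 5 tables other than TruSeq at 20M reads (limma adjusted p from 0.788 to 0.851), and by 2.73 in that table (adjusted p = 0.000200). Of 13 dendritic cell markers, Mgl2 and Sirpa had rows, and both models are on the kit-read list of the 100 ng background. Of the lists for macrophages, T cells, B cells, fibroblasts and epithelium 0 genes had rows, so the identity of the cells was not checked here. Over the 12 sample means of log2 model totals, the models most like Ppp2r3a were Slc25a35, Tmem62 and a model with no gene name (Pearson r of 0.89, 0.89 and 0.88), and those most like Arpp19 were Tgfbrap1, Gas5 and Cbx7 (0.98, 0.96 and 0.93). These samples share backgrounds and scaling. Leaving out the sample that stood apart, 0 of the 3 models most like Ppp2r3a and 2 of the 3 most like Arpp19 were the same. Ppp2r3a and Arpp19 themselves had r = 0.32 over 12 and 0.22 over 11 sample means.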

How the data were processed

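The data were reads over exon bins in 12 mixtures of mouse D1 RNA-seq reads. STAR, Cuffdiff and mm9 are named in the submitters' processing notes, without versions. The counting of reads per bin is not described there. The authors deposited 6 tables with 10 columns each and 1744 rows, of which 818 repeated another row. The deposited values were a coverage signal, although the tables are named FPKM. They equalled whole reads divided by bin length, and replicate 5 on 100 ng held these values divided once more, by what is taken to be its library size in units of 1e6 reads (16.0 to 16.2, and 201 at 20M TruSeq reads). Lengths and divisors were inferred from the values, and the bins' lengths equal the annotated exon's end minus its start. Multiplying back gave whole reads for 100.0% of values within 0.001 reads, which for the other 9 columns follows from how lengths were found.

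Levels were scaled by median-of-ratios size factors over bins with reads in all 10 columns, with the level set by that library size. Each table was fitted on its own with limma 3.58.1 (R 4.3.3) on log2(FPKM equivalent + 1), two-sided, with Benjamini-Hochberg adjustment over all 922 bins or 58 totals and a threshold of 0.05. Models with a listed transcript were not filtered, bins of others needed a mean of at least 1, and bins with no read were left out. All 24 bins of both genes were tested. The tests had been planned for FPKM, and the scaling was changed when the unit was found. The fit was tested on reads simulated from the table with 20M NuGENv2 reads. Of 100 bins changed 2-fold and 100 changed 4-fold, 99% and 100% were recovered, and 4.33% of calls were false. Only bins with more reads were changed, and reads were drawn separately for each replicate. The simulation therefore does not cover sparse bins or the same reads added to all 5 replicates. Coordinates and sequences were read from NCBIM37 with GENCODE M1 and each printed sequence was found in annotated transcripts. All bins of both genes are described, and values per replicate are given for those called or with the largest gains. The genes, lists and tests were chosen with earlier results of these data known. Other scalings, pseudocounts, filters, left-out replicates and a replicate block were tried.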

Additional observations from a re-analysis of the deposited data

Results flagged for a closer look

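Of 120 groups of 5 replicates, for model totals and the bins examined singly, 7 had a replicate far from the other 4 (the gap to its neighbour over the range, against a critical value of 0.71). Chance flags about 1 in 20 such groups, so 7 of 120 is near that rate, and tables of the same background share their reads. In Ppp2r3a E017, replicate 2 of the 100 ng background was the highest at 20M NuGENv2 reads (0.739 FPKM equivalents) and at 20M, 40M and 80M TruSeq reads (0.116, 0.738 and 0.740). It held 2 reads more than each of the other replicates. In Ppp2r3a E002, replicate 2 of the 1000 ng background was the lowest at 80M NuGENv2 reads (0.201) and at 80M TruSeq reads (0.304). That replicate has the largest size factor of its group, 1.94 at 20M NuGENv2 reads. In Ppp2r3a E016, replicate 5 of the 1000 ng background was the lowest at 20M TruSeq reads (0.782).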

How the results depend on the processing

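Of 1106 values under other settings, 1027 kept their side of the threshold, or their count within 1.5 times. Among these, 20 of 852 log2 fold changes turned sign, all without a call before and after (values from -0.083 to 0.008). Without scaling for depth and without the fifth 100 ng column, the Ppp2r3a total was -0.27, -0.65 and -1.06 with NuGENv2 and -0.49 and -0.95 at 40M and 80M TruSeq reads, none past the threshold. Bins called were then 0 at 20M and 40M NuGENv2 and 40M TruSeq reads and 17 at 20M TruSeq reads. There the total of Ppp2r3a was -2.65 and that of Arpp19 -2.69, and E002 turned from 0.11 to -1.47. Size factors were also taken from bins with the same reads in the tables with 20M NuGENv2 and 80M TruSeq reads. With these, 8 Ppp2r3a bins were called at 20M TruSeq reads, and E003 lost its call at 80M TruSeq reads (0.44, adjusted p = 0.0619). With a pseudocount of 0.1, 2 bins were called at 20M NuGENv2 reads.

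Columns of both backgrounds share numbers 1 to 5, but same-numbered columns did not deviate together (r from -0.403 to 0.113), so the block pairs only numbers. With the replicate block the Ppp2r3a total kept its value of -0.38 at 20M NuGENv2 and -0.082 at 20M TruSeq reads, neither past the threshold, and bins called were 0 and 1 at 20M and 40M NuGENv2 reads and 2 each at 20M and 80M TruSeq reads, with 3 in place of 4 at 80M NuGENv2 reads. E015 at 80M NuGENv2 reads (adjusted p = 0.114) and E002 and E003 at 80M TruSeq reads (0.069 and 0.140) lost their calls. With a replicate left out, bins called ranged from 1 to 2 at 20M NuGENv2 reads and from 2 to 5 at 20M TruSeq reads. The Ppp2r3a totals ranged from -0.41 to -0.34 and from -0.099 to -0.064. The cause of these changes was not tested. The call and direction of E001 and E016 at 80M held under every setting tried. The totals of Arpp19 kept their side of the threshold, and 1 of 96 turned sign (from 0.035 to -0.001 at 20M NuGENv2 reads, a replicate left out). Usage was recomputed only with the Simes adjustment, which changed no call of either gene. With few reads in E002, E015 and E017, depth limits what these bins show.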
